A study of Homo sapiens with 6 samples.

Results

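BRA binding around 7 genes that respond to WNT signalling or modulate it, AXIN2, SP5, SP8, LEF1, TCF7, RSPO3 and DKK1, was read from 4 lists of ChIP-seq peaks. A peak was counted for a gene when its midpoint lay in the gene body or within 50 kb on either side of it, in coordinates of the human genome build hg19. By this rule 90 of the 54994 peaks in the lists belonged to the 7 genes. The cells were all of 1 line, the established human embryonic stem cell line H9, and had received 20 ng/ml FGF2 and 10 μM LY294002, an inhibitor of PI3 kinase, for 36 h. Medium FLyA also held activin A at 100 ng/ml and gave cells labelled as endoderm progenitors, whereas medium FLyB held BMP4 at 10 ng/ml and gave cells labelled as mesoderm progenitors. Chromatin from each medium was precipitated in 1 library with an anti-BRA antibody from R&D Systems and in 1 library with one from Santa Cruz. The comparison of the media asks whether BRA was found at the same positions of these genes in both kinds of progenitor. Input DNA had been sequenced in 2 further libraries, which were not used here. Each list gives positions only, with 400 bp for every peak, so neither the height of a peak nor the read depth behind it is known. The media were not tested against each other, since each had 1 library per antibody and the antibodies gave lists of very unequal length. The authors described the Santa Cruz libraries as noisier and poorer in uniquely mapped reads than those of R&D Systems. A position without a peak is a position where none was listed, which does not show that BRA was absent. The identity of the cells could not be checked against marker genes, since binding positions carry no expression values.

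WNT ligands act through Frizzled receptors and their LRP co-receptors to keep β-catenin from being degraded, and β-catenin then activates genes through the DNA-binding proteins of the TCF and LEF family. The pathway drives formation of the primitive streak, where the T-box factor BRA is expressed, and it is held in check by feedback from its own targets. AXIN2 encodes a scaffold of the complex that degrades β-catenin and is a widely used read-out of WNT signalling. SP5 and SP8 encode related zinc finger factors that act downstream of WNT. LEF1 and TCF7 encode nuclear partners of β-catenin. RSPO3 encodes a secreted protein that strengthens WNT signalling through LGR receptors, and DKK1 encodes a secreted inhibitor that binds the LRP co-receptors.

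The R&D Systems lists held 28 peaks in the 7 windows in FLyA and 51 in FLyB, and the Santa Cruz lists held 3 and 8. Of the R&D Systems peaks of both media in the windows, 64.6% (51 of 79, exact 95% interval 53.0 to 75.0%) were FLyB peaks, whereas FLyB peaks made up 47.8% of the R&D Systems peaks genome-wide. Such intervals cover counting error only and treat peaks as independent, which neighbouring peaks are not. In 6 of the 7 windows the FLyB list was the longer one, and DKK1 was the exception, but for 4 genes this turned or ended with the width of the window. With flanks of 20 and 100 kb instead of 50 kb, SP5 had fewer FLyB than FLyA peaks (3 and 4, then 12 and 13), and with 10 kb it had 3 in each. DKK1 was tied at all 3 of these widths, and SP8 and TCF7 were tied with 100 kb. Only AXIN2, LEF1 and RSPO3 had more FLyB peaks at every width, and the wider windows hold the peaks of the narrower ones. RSPO3 had few peaks, with 0 in FLyA and 1 in FLyB at 10 kb, and 1 and 4 at 100 kb. AXIN2 alone held 20 of the 51 FLyB peaks. Without the AXIN2 window the share was 59.6% (31 of 52, 45.1 to 73.0%). This was still above the genome-wide share, but the interval, wider with fewer peaks, holds that share.

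**Figure D1:**
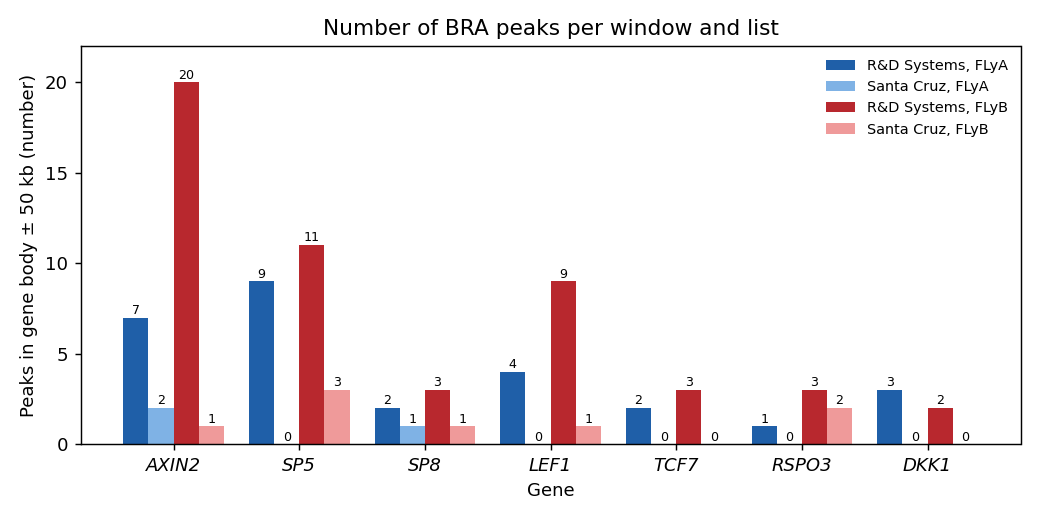
Number of BRA peaks (vertical axis) in the gene body and 50 kb each side of 7 genes (horizontal axis), with 1 bar for each of the 4 lists and the number above it; there is 1 library per bar and no error can be given. AXIN2 had 20 R&D Systems peaks in FLyB and 7 in FLyA, and at this window width DKK1 had fewer R&D Systems peaks in FLyB (2) than in FLyA (3), which became a tie with flanks of 10, 20 or 100 kb.

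The genes differed widely in how densely they were bound. To place them, each chromosome was divided into tiles of 100 kb between its first and last peak. An R&D Systems peak was present in 48.7% of the 29445 tiles in FLyA and in 41.7% in FLyB, and a Santa Cruz peak in 7.53% and 8.78%. The AXIN2 window held 15.0 FLyB peaks per 100 kb, a density reached by 0.00679% of the tiles, which is 2 tiles, and 5.26 FLyA peaks per 100 kb, reached by 0.914%. SP5 held 10.8 FLyB and 8.82 FLyA peaks per 100 kb, densities reached by 0.0883% and 0.0781% of the tiles. These were the densest windows of the 7 in both media.

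The next was LEF1 in FLyB, with 4.07 peaks per 100 kb, reached by 2.66% of the tiles, whereas its FLyA density of 1.81 was reached by 21.9%. SP8 (2.86) and TCF7 (2.24) had FLyB densities that 9.12% of the tiles reached and FLyA densities (1.90 and 1.49) that 21.9% reached. A tile holds whole peaks, so both FLyB densities needed 3 peaks. In tiles as wide as each window, 9.79% reached the FLyB count of SP8 and 13.6% that of TCF7. DKK1 stood higher in FLyA, where 9.50% of the tiles reached its 2.91 peaks per 100 kb, than in FLyB, where 18.9% reached its 1.94. RSPO3 had 1.68 FLyB peaks per 100 kb, reached by 18.9% of the tiles, and 0.559 FLyA peaks per 100 kb. Every tile with a FLyA peak, 48.7% of all, was at least as dense as that. The tiles include stretches without genes, and the windows were placed on genes, and what this difference adds to the densities was not tested.

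**Figure D2:**
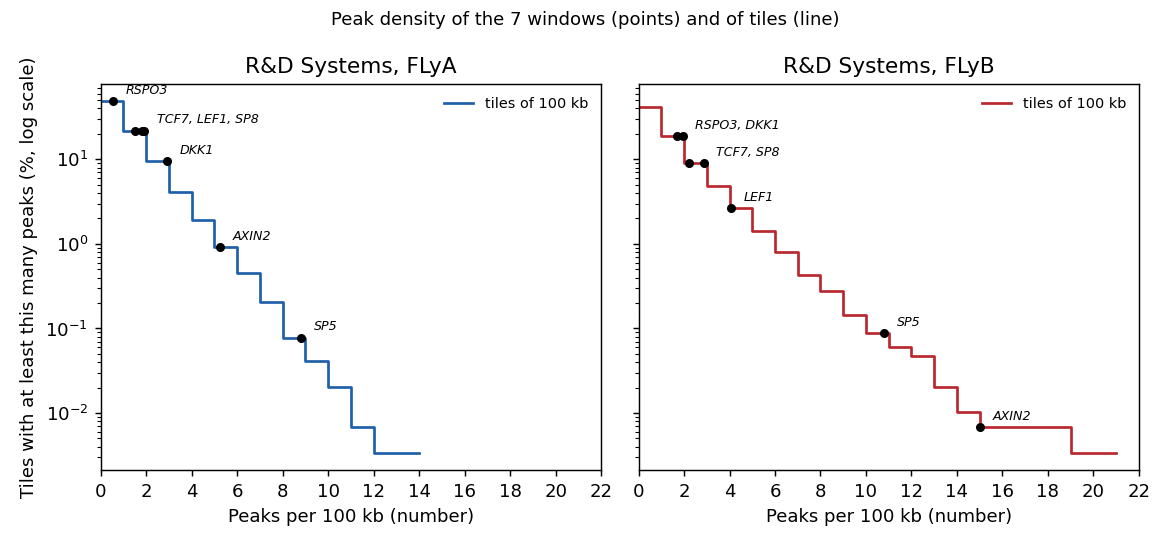
Share of tiles of 100 kb that held at least a given number of R&D Systems peaks (vertical axis, log scale) against that number (horizontal axis), for FLyA on the left and FLyB on the right, with the 7 windows as points at their density per 100 kb. AXIN2 lies at 15.0 and SP5 at 10.8 in FLyB, far to the right of the other 5 windows, which lie between 1.68 and 4.07.

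SP5, SP8 and DKK1 each had a peak within 1 kb of the gene's 5' end, the end from which it is read, at a start that RefSeq also gives. Their promoters are shown here because these starts have a BRA peak close by and the genes respond to WNT, whose nuclear factors bind the motifs searched for. They were taken from the RefSeq table of GRCh38.p14, not from the build of the peaks, and no position was converted. Of the 7 genes, 6 matched an entry of that table, and AXIN2 did not. The sequences are the 250 bases before the start of SP5 (chr2:170715087-170715336, plus strand), SP8 (chr7:20786887-20787136, minus strand) and DKK1 (chr10:52314031-52314280, plus strand), 5′ to 3′ on the strand of the gene. Capitals mark the TCF/LEF motifs CTTTGAT and CTTTGAA on either strand.

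SP5: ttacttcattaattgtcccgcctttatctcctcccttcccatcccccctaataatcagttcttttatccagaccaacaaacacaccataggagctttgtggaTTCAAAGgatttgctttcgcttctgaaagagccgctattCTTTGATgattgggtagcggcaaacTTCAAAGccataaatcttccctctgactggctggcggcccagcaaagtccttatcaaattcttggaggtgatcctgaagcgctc
SP8: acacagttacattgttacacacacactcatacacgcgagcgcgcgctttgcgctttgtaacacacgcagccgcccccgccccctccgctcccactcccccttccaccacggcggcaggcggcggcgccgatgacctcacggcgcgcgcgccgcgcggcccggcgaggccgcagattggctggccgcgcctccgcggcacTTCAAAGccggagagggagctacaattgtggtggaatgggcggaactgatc
DKK1: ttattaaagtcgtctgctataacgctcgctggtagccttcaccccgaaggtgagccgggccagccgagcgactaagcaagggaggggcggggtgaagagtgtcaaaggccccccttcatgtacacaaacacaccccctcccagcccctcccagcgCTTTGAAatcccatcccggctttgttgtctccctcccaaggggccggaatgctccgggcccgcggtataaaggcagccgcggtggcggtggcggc

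The SP5 promoter held CTTTGAT once, 109 to 103 bases before the start, and CTTTGAA on the opposite strand at 148 to 142 and at 84 to 78 bases before it. SP8 held CTTTGAA on the opposite strand at 51 to 45 bases and DKK1 on the gene's strand at 95 to 89 bases before the start. The entries of LEF1, RSPO3 and TCF7 held neither, so that 1 of the 7 entries of the 6 genes had CTTTGAT and 3 had CTTTGAA. Among all 35116 promoter entries, 2.26% held CTTTGAT and 3.80% CTTTGAA in the same 250 bases. The T-box half-site TCACACCT was in none of the 7 promoter entries of the 6 genes, nor was its core GTGTGA, against 0.786% and 9.90% of all entries. Both strands were searched for each motif, and every match of the half-site is also a match of the core. These letters are matches in windows of 250 bases and say nothing of BRA binding under the peaks, whose own sequence was not used here.

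AXIN2, the feedback scaffold, lies on chromosome 17 on the minus strand. Its window (chr17:63475000-63608000) held 20 R&D Systems FLyB peaks, 7 R&D Systems FLyA peaks, 2 Santa Cruz FLyA peaks and 1 Santa Cruz FLyB peak. The FLyB peaks ran through the whole locus, with 5 upstream of the gene, 8 in its body and 7 beyond its 3' end, and a median of 3391 bp between neighbours, where neighbouring FLyB peaks were 44865 bp apart in the median over the genome. Of these 20 peaks, 15 overlapped no FLyA peak, as did 63.9% of the whole R&D Systems FLyB list. The difference was not tested. Among the FLyB-only peaks was a row of 6 just beyond the 3' end of the gene, between 34.5 and 47.6 kb from the 5' end, a stretch with no FLyA peak of either antibody. The tile from 63500001 to 63600000 held 19 FLyB peaks and was 1 of the 2 densest FLyB tiles of the genome. The other, also on chromosome 17, had 21.

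Chromosome 17 was itself tilted towards FLyB, with FLyB peaks making up 54.3% of its R&D Systems peaks, and 0.247% of its tiles reached the AXIN2 density. In the AXIN2 window the FLyB share was 74.1% (20 of 27, exact 95% interval 53.7 to 88.9%), an interval whose lower end is just under the share of the chromosome. How much of the AXIN2 excess belongs to the chromosome was not tested.

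At the 5' end of AXIN2 the peaks listed in the media lay at different positions. A FLyA peak was found there with both antibodies (chr17:63557814-63558262), centred within 1 kb of the end. No FLyB peak overlapped it, as was so for 67.0% of the whole R&D Systems FLyA list. The nearest FLyB peak (chr17:63557089-63557488) had its midpoint 725 bp away in the direction of the gene, with a further FLyB peak 1.3 kb from the 5' end. Positions with respect to a gene rest on gene ends given to 1 kb, so a distance under 1 kb cannot be assigned to a side of the start.

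The other AXIN2 sites seen in more than 1 list were common to the media. The site at chr17:63568614-63569351, 11.0 kb upstream, was held by FLyA with both antibodies and by R&D Systems FLyB, although the R&D Systems midpoints of the 2 media lay 338 bp apart, the widest spacing of any shared site in the 7 windows. The site at chr17:63527345-63527937, in the gene 30.4 kb from its 5' end, was held by FLyB with both antibodies and by R&D Systems FLyA. The sites at chr17:63564330-63564730 (6.5 kb upstream, midpoints 1 bp apart), chr17:63546378-63546820 (11.4 kb into the gene) and chr17:63491297-63491728 (66.5 kb from the 5' end, past the gene) were found in both R&D Systems lists only.

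SP5 lies on chromosome 2 on the plus strand, and its window (chr2:171522000-171624000) held 9 R&D Systems FLyA, 11 R&D Systems FLyB, no Santa Cruz FLyA and 3 Santa Cruz FLyB peaks. In contrast to AXIN2, the media were nearly even here, and 6 sites were common to both R&D Systems lists, the most of any of the 7 genes. Binding lay mostly upstream of the gene, with 6 of the FLyA and 8 of the FLyB peaks there. Of the 3 Santa Cruz FLyB peaks, 2 fell on common sites, at chr2:171536681-171537166 (35.1 kb upstream) and chr2:171568253-171568909 (3.4 kb upstream).

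The remaining Santa Cruz peak fell on a FLyB-only site at the 5' end (chr2:171571468-171571927). A FLyA-only peak lay next to it in the direction of the gene (chr2:171572109-171572508), 641 bp from the R&D Systems FLyB peak. At SP5 it was thus the FLyB site at the 5' end that was found with both antibodies, and at AXIN2 the FLyA site. Another 4 sites were held by the R&D Systems lists of both media without a Santa Cruz peak. They were chr2:171570652-171571115 (1.1 kb upstream), chr2:171551653-171552161 and chr2:171550737-171551148 (20.1 and 21.1 kb upstream), and chr2:171623181-171623586 (51.4 kb from the 5' end, past the gene).

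SP8 lies on chromosome 7 on the minus strand, and its window (chr7:20772000-20877000) held 2 R&D Systems FLyA, 3 R&D Systems FLyB, 1 Santa Cruz FLyA and 1 Santa Cruz FLyB peak. One site, past the 3' end of the gene and 10.8 kb from its 5' end (chr7:20815996-20816447), was held by all 4 lists, with the 4 midpoints within 52 bp. It was the only such site in the 7 windows, and over the genome 226 of 43081 sites (0.525%) were in all 4 lists, where a site joins peaks of any list that overlap by at least 1 bp. At the 5' end, a single FLyB peak was listed with the R&D Systems antibody alone (chr7:20826591-20826990). Further upstream, a FLyB-only and a FLyA-only peak lay 11.0 and 11.7 kb from the gene with their midpoints 686 bp apart.

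LEF1 lies on chromosome 4 on the minus strand, and its window (chr4:108919000-109140000) held 4 R&D Systems FLyA, 9 R&D Systems FLyB, no Santa Cruz FLyA and 1 Santa Cruz FLyB peak. The FLyB peaks gathered at the 5' end, where FLyA had none. From 4.6 kb upstream to 8.7 kb into the gene there were 6 FLyB peaks, 4 of them at or before the 5' end. The nearest (chr4:109090362-109090761) lay 0.6 kb from the 5' end. The nearest FLyA peak was 33.1 kb inside the gene. The Santa Cruz FLyB peak fell in this group, at a site 7.9 kb into the gene (chr4:109081877-109082326). These distances are from the outer end of the gene, and the start that the RefSeq promoter entry uses is 2631 bp inside the gene record. The 2 common sites lay deeper in the gene, at 33.1 kb (chr4:109056692-109057095) and 51.2 kb (chr4:109038612-109039046), with midpoints 4 and 35 bp apart.

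TCF7 lies on chromosome 5 on the plus strand, and its window (chr5:133400000-133534000) held 2 R&D Systems FLyA and 3 R&D Systems FLyB peaks and none with the Santa Cruz antibody. No peak lay in the gene body that the window was built on. The media shared a site 43.1 kb upstream (chr5:133406685-133407088), and the peak nearest to the 5' end was a FLyB-only peak 2.4 kb upstream (chr5:133447369-133447768). Another FLyB-only peak lay 14.2 kb upstream. FLyB-only peaks were thus 2 of the 3 R&D Systems FLyB peaks in this window, and in the whole list they made up 63.9%. With flanks of 100 kb, TCF7 had 5 R&D Systems peaks in each medium. RefSeq holds 2 promoter entries for TCF7, which start 7395 and 15400 bp inside its gene record, and that record, of 39993 bp, is longer than the gene body of 34 kb in the window. The distances and the gene body given here are those of the window, and with a longer gene model the peak 2.4 kb upstream could lie inside the gene.

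RSPO3, the secreted enhancer, lies on chromosome 6 on the plus strand. Its window (chr6:127390000-127569000) held 1 R&D Systems FLyA, 3 R&D Systems FLyB and 2 Santa Cruz FLyB peaks, and no Santa Cruz FLyA peak. The FLyA peak lay on a site 16.3 kb upstream (chr6:127423531-127423965) that was also held by FLyB with both antibodies. The second Santa Cruz FLyB peak was its direct neighbour (chr6:127423995-127424394) and was the only Santa Cruz peak of the 7 windows that overlapped no R&D Systems peak of its medium. Close to the 5' end, 1.6 kb into the gene, the lists held a FLyB-only peak (chr6:127441381-127441780).

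DKK1, the secreted inhibitor, lies on chromosome 10 on the plus strand, and its window (chr10:54024000-54127000) held 3 R&D Systems FLyA and 2 R&D Systems FLyB peaks and no Santa Cruz peak. The media shared a site 0.6 kb from the 5' end (chr10:54073173-54073582), with midpoints 10 bp apart. A FLyA-only peak followed in the direction of the gene, 0.3 kb from the same end (chr10:54074105-54074504), and a FLyB-only peak lay 5.5 kb upstream. The third FLyA peak was 42.3 kb away, beyond the gene.

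**Figure D3:**
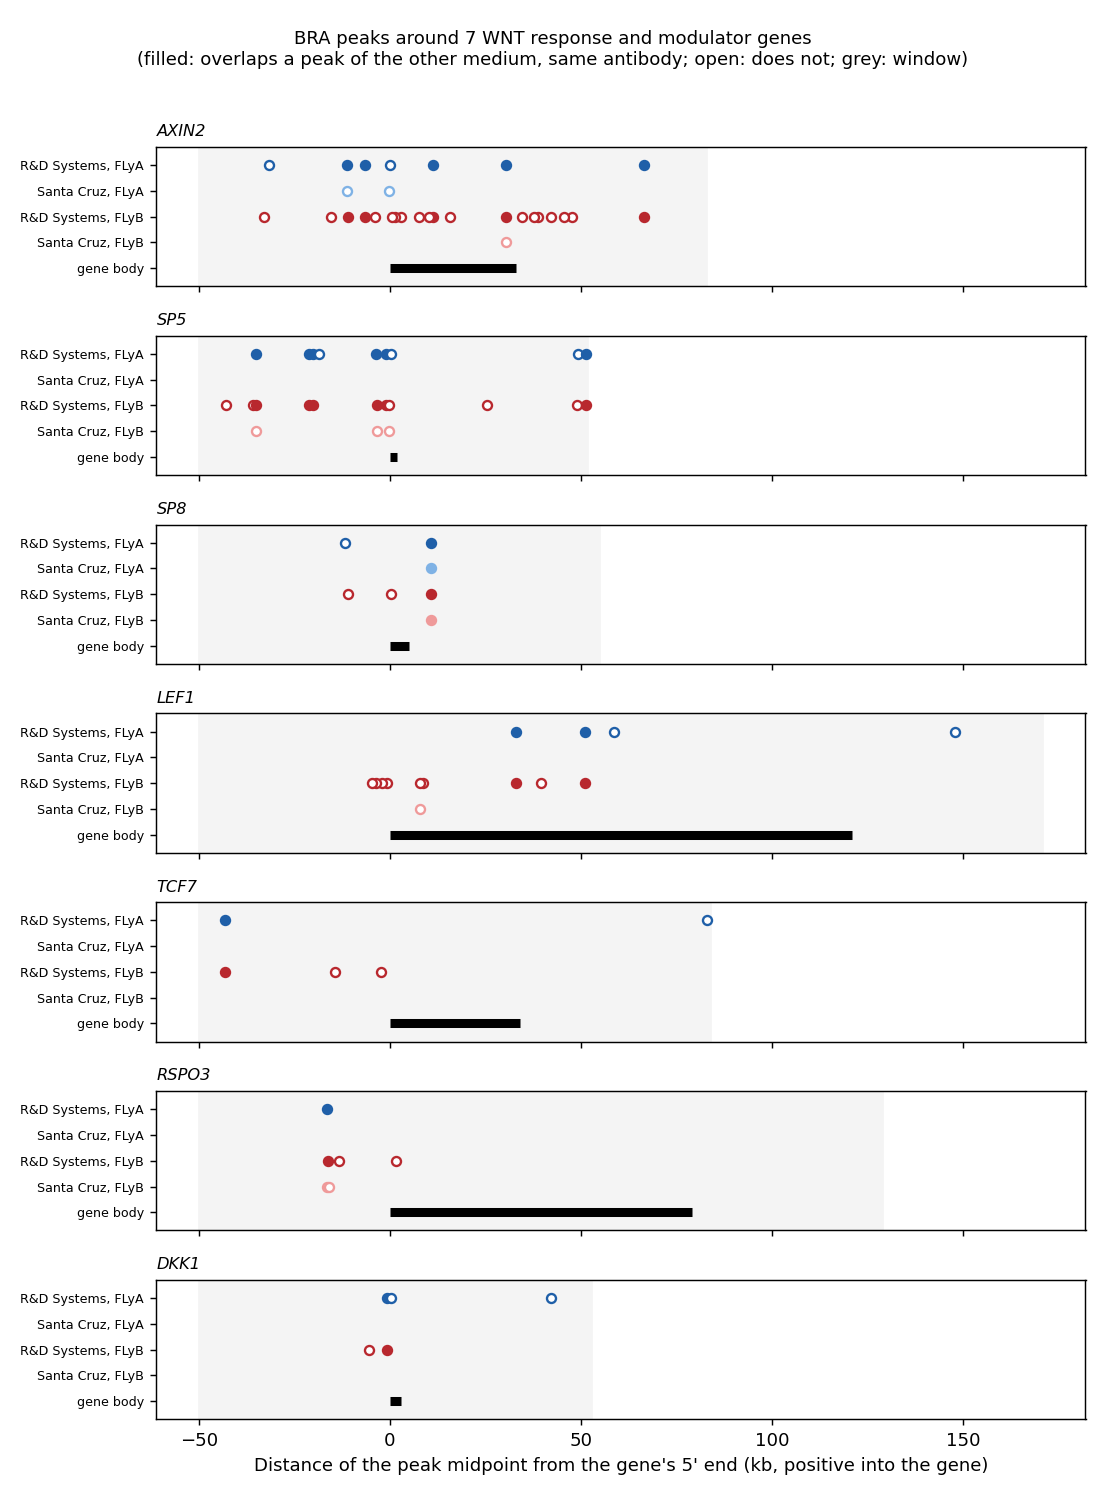
Position of every BRA peak in the 7 windows as the distance of its midpoint from the gene's 5' end in kb (horizontal axis), with a row for each of the 4 lists; filled points overlap a peak of the other medium with the same antibody, open points do not, the black bar is the gene body and grey the window. Open R&D Systems FLyB points run through AXIN2 (15 of 20, where 63.9% of the whole list overlap no FLyA peak). They also gather at the 5' end of LEF1, whose window has 7 open points of 9 in that list, and SP8 has a filled point in all 4 lists at 10.8 kb.

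Over the 7 windows, a smaller share of the FLyA peaks stood alone than in the whole list. No FLyB peak lay on 11 of the 28 R&D Systems FLyA peaks, which is 39.3% (exact 95% interval 21.5 to 59.4%), against 67.0% of the whole list. No FLyA peak lay on 34 of the 51 R&D Systems FLyB peaks, which is 66.7% (52.1 to 79.2%), close to the 63.9% of the whole list. Over the genome, overlap was more frequent in tiles picked for many peaks of the other medium, a choice that itself favours overlap. Whether density accounts for the share in the windows was not tested. In tiles of 100 kb that held at least 5 FLyB peaks, 37.3% of the FLyA peaks stood alone. In tiles with at least 3 FLyA peaks, 45.8% of the FLyB peaks stood alone. AXIN2 held 15 of the 34 lone FLyB peaks of the windows. Without its window the share was 61.3% of 31, for which no interval was computed. These densities were set near those of the windows, 5.22 FLyB and 2.87 FLyA peaks per 100 kb, after the values had been seen. AXIN2 (15.0 FLyB and 5.26 FLyA peaks per 100 kb) and SP5 (10.8 and 8.82), which carry those means, lay above the cut-offs of the tiles. The other 5 windows lay below them, with 1.68 to 4.07 FLyB and 0.559 to 2.91 FLyA peaks per 100 kb. The tiles were thus not matched to the windows one by one.

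The peaks found in 1 medium often had a peak of the other medium nearby. Of the 11 FLyA-only peaks, 8 (72.7%, 39.0 to 94.0%) had a FLyB peak within 10 kb, and of the 34 FLyB-only peaks, 20 (58.8%, 40.7 to 75.4%) were as near to one of FLyA. In the whole lists these shares were 23.7% and 31.1%. In the tiles dense in the other medium they were 73.7% and 63.2%. Those tiles were picked for many peaks of the other medium, which by itself makes a nearby peak likely. They therefore cannot show whether density accounts for the shares in the windows. The median distance from a FLyA-only peak to the nearest FLyB peak was 1139 bp in the windows and 36618 bp in the whole list, and that from a FLyB-only peak to the nearest FLyA peak was 6960 and 23564 bp. Where the media did share a peak, its midpoints lay a median of 35 bp apart in the windows and 38 bp apart in the whole lists.

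**Figure D4:**
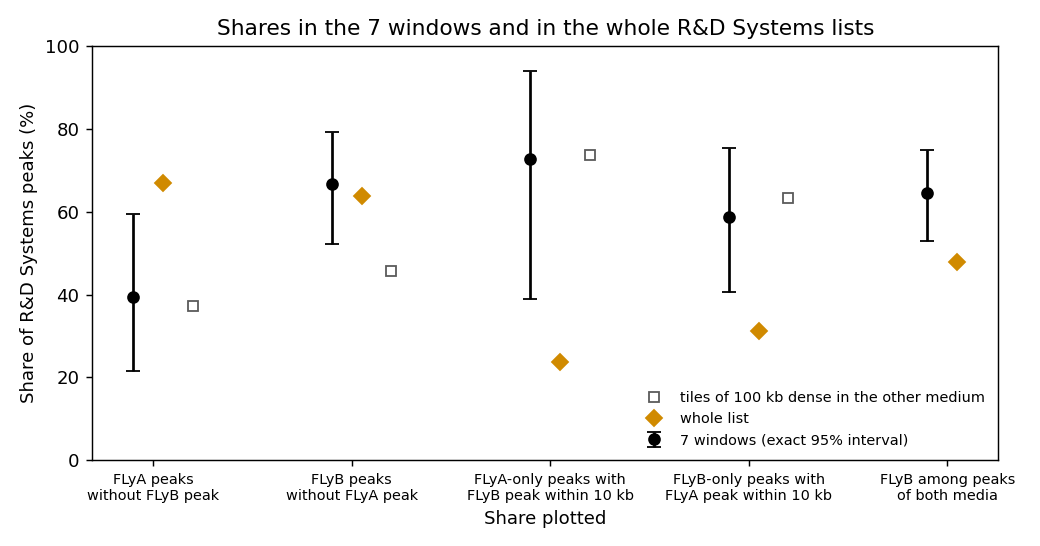
Share of R&D Systems peaks in percent (vertical axis) for the 5 shares named on the horizontal axis, in the 7 windows (black, with exact 95% interval), in the whole list (orange) and, for the first 4, in tiles of 100 kb with at least 5 FLyB or at least 3 FLyA peaks (open squares). The FLyA peaks without a FLyB peak lie at 39.3% in the windows, 67.0% in the whole list and 37.3% in the dense tiles. Those tiles were picked for many peaks of the other medium and were not matched to the windows one by one.

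The Santa Cruz lists were short, with 2436 peaks in FLyA and 3007 in FLyB against 25864 and 23687 with the R&D Systems antibody. The windows held 0.123% and 0.266% of the Santa Cruz lists and 0.108% and 0.215% of the R&D Systems lists. Most of the Santa Cruz peaks in the windows fell on R&D Systems sites. In FLyA all 3 Santa Cruz peaks (100%, 29.2 to 100%) lay on one of the R&D Systems list, against 31.9% of the Santa Cruz list as a whole. In FLyB 7 of 8 did (87.5%, 47.3 to 99.7%), against 79.0% of the whole list. Seen from the R&D Systems lists, 10.7% of the FLyA peaks in the windows (3 of 28, 2.27 to 28.2%) and 13.7% of the FLyB peaks (7 of 51, 5.70 to 26.3%) were also found with the Santa Cruz antibody, against 3.02% and 10.0% of the whole lists. Both antibodies thus placed peaks in the AXIN2 and SP8 windows in FLyA, and in the AXIN2, SP5, SP8, LEF1 and RSPO3 windows in FLyB.

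The 90 peaks fell on 63 sites, of which 17 were held in both media, 11 in FLyA alone and 35 in FLyB alone. AXIN2 held 15 of these 35. Over the genome, 20.1% of the sites were held in both media, 43.7% in FLyA alone and 36.2% in FLyB alone, while the windows had 27.0%, 17.5% and 55.6%. In the windows 20 sites were found in at least 2 lists and 6 in at least 3, which is 31.7% and 9.52%, against 23.2% and 3.68% over the genome. These 6 lay at AXIN2 and SP5, with 2 each, and at SP8 and RSPO3, with 1 each. The shares of sites were not computed in the dense tiles.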

How the data were processed

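BRA ChIP-seq peaks from 4 libraries, 1 for each medium and antibody, were analysed. Libraries had been sequenced on a Genome Analyzer II. The authors called peaks with MACS, and the submitters' processing notes name Bowtie 0.12.7 and the build hg19. The deposited lists hold chromosome, start and end only, without a score or signal. Both Santa Cruz lists carry a track line that names MACS with 1e-12. The R&D Systems lists carry no track line. Which control MACS was given, and how it handled duplicates, is not given in the sources used here. The number of reads per library is unknown, although the authors describe the Santa Cruz libraries as lower in unique reads and in signal over noise.

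The windows, lists and comparisons were chosen with earlier results of these data known. All 7 genes are named, and sites are named where at least 2 lists held them or where they were nearest to a 5' end. Gene ends come from the windows, to 1 kb, and strand comes from the RefSeq promoter table, or general knowledge for AXIN2. Printed positions count from 1. Peaks sharing at least 1 bp were taken as overlapping. Python 3.11.15 was used for all counts, with SciPy 1.17.1, NumPy 2.4.6 and, for plotting, matplotlib 3.10.9. The overlaps over whole lists were checked against bedtools 2.31.1. Overlap, merging and tiling were tested on simulated data. Intervals are exact (Clopper-Pearson), at 95%, and cover counting error only. No p-value was computed. Motifs under peaks and other WNT pathway genes need a genome or annotation of hg19 and were not analysed here. Alternatives covered the flank, the overlap rule, the antibody, the window left out and the tile width.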

Additional observations from a re-analysis of the deposited data

How the results depend on the processing

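With flanks of 10 kb, the R&D Systems counts over the 7 windows were 13 in FLyA and 32 in FLyB and the Santa Cruz FLyB count was 5. With flanks of 20 kb, the R&D Systems FLyA count was 17. Narrower windows hold fewer peaks by construction. With the Santa Cruz antibody, 66.7% of 3 FLyA peaks and 87.5% of 8 FLyB peaks lacked a peak of the other medium, and the cause was not tested. The same shares over the whole Santa Cruz lists were not computed. With peaks at most 500 bp apart counted as shared, 100% of the 8 Santa Cruz FLyB peaks lay on an R&D Systems FLyB peak. By the same rule, 25.0% of the R&D Systems FLyA peaks and 56.9% of the FLyB peaks lacked the other medium. The whole-list shares were not computed by this rule, and those given above rest on an overlap of at least 1 bp.

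Leaving out each window in turn gave 36.0 to 42.9% of FLyA peaks and 61.3 to 72.5% of FLyB peaks without the other medium, and a FLyB share among R&D Systems peaks of 59.6 to 67.8%. With flanks of 10, 20 and 100 kb this FLyB share was 71.1, 70.2 and 60.8%, and it was 72.7% (of 11) in the Santa Cruz lists. Of the 65 alternative values for the results over all windows, 58 stayed within the 95% interval of the reported share or within 1.5 times the reported count. Of the 112 for single windows, 92 did. Windows whose density at most 10% of the tiles reached numbered 3 in FLyA at each tile width, and 5 in FLyB at each fixed width but 4 with tiles as wide as the window. Those tiles, the dense tiles and every alternative for the FLyB share, the value without AXIN2 included, were chosen after seeing the data. The alternatives for motifs under peaks were not run. The read depth of each library was not given here, and whether a position listed in 1 medium was below the calling threshold in the other was not tested.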
